A study of Rattus norvegicus with 10 samples.

Results

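The genes described here build and deliver iron-sulfur clusters in mitochondria. They were chosen by name, as the 9 symbols Nfs1, Iscu, Isca1, Isca2, Lyrm4, Hscb, Glrx5, Bola3 and Nfu1, out of 17168 genes in the deposited tables. Of the 9, 8 had a row in the tables and all 8 passed the filter on low counts, among 12161 genes that did. The expression of Lyrm4, the small partner that stabilises the desulfurase Nfs1, was not analysed here, and Lyrm4 enters only the promoter windows.

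RNA was sequenced from left hippocampi of 10 male rats of the TgF344-AD line, a transgenic model of Alzheimer's disease, killed at 11 months of age. In the untreated group 5 rats ate plain chow. In the RG2833 group 5 rats ate chow with 750 mg of RG2833 per kg, which inhibits 2 histone deacetylases (HDAC1 and HDAC3), from 5 months of age for 6 months. All 10 rats carry the transgenic genotype, given in the labels as Tg-AD with no transgene or promoter named, so the comparison is of drug against no drug within transgenic males, with each library from 1 rat.

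Iron-sulfur clusters are small cofactors that carry electrons in the respiratory chain and sit in the active sites of enzymes such as lipoate synthase. In mitochondria, the cysteine desulfurase Nfs1 with Lyrm4 takes sulfur from cysteine and passes it to the scaffold Iscu, where a cluster forms. The co-chaperone Hscb and the heat shock protein Hspa9 release it to the monothiol glutaredoxin Glrx5. Isca1 and Isca2 then take part in making the larger cubane clusters, and Nfu1 and Bola3 act late, in delivery to client enzymes such as lipoate synthase. Neurons and glia both depend on these cofactors for oxidative metabolism.

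None of the 8 measured assembly genes passed the test of RG2833 against untreated, and 7 of the 8 had a 95% interval of the log2 fold change that spanned 0. In edgeR's quasi-likelihood test over the whole table, 0 of 12161 (0%) had an adjusted p under 0.05, and 688 (5.66%) had an unadjusted p under 0.05. Among the 8, 4 were higher and 4 lower in RG2833, with a median log2 fold change of -0.013, beside -0.011 over all genes tested. Fold changes ran from 0.873 for Nfu1 to 1.05 for Bola3, and the 95% intervals of all 8 lay between 0.771 and 1.199. One gene, Nfu1, had an unadjusted p under 0.05, in the lower direction, where 2.71% of all genes did. In 0 of the 8 genes were the groups free of overlap, against 1.00% of all genes. DESeq2 gave 7 genes with an adjusted p under 0.05 over all genes and limma-voom 0, none of them among the 8.

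**Figure D1:**
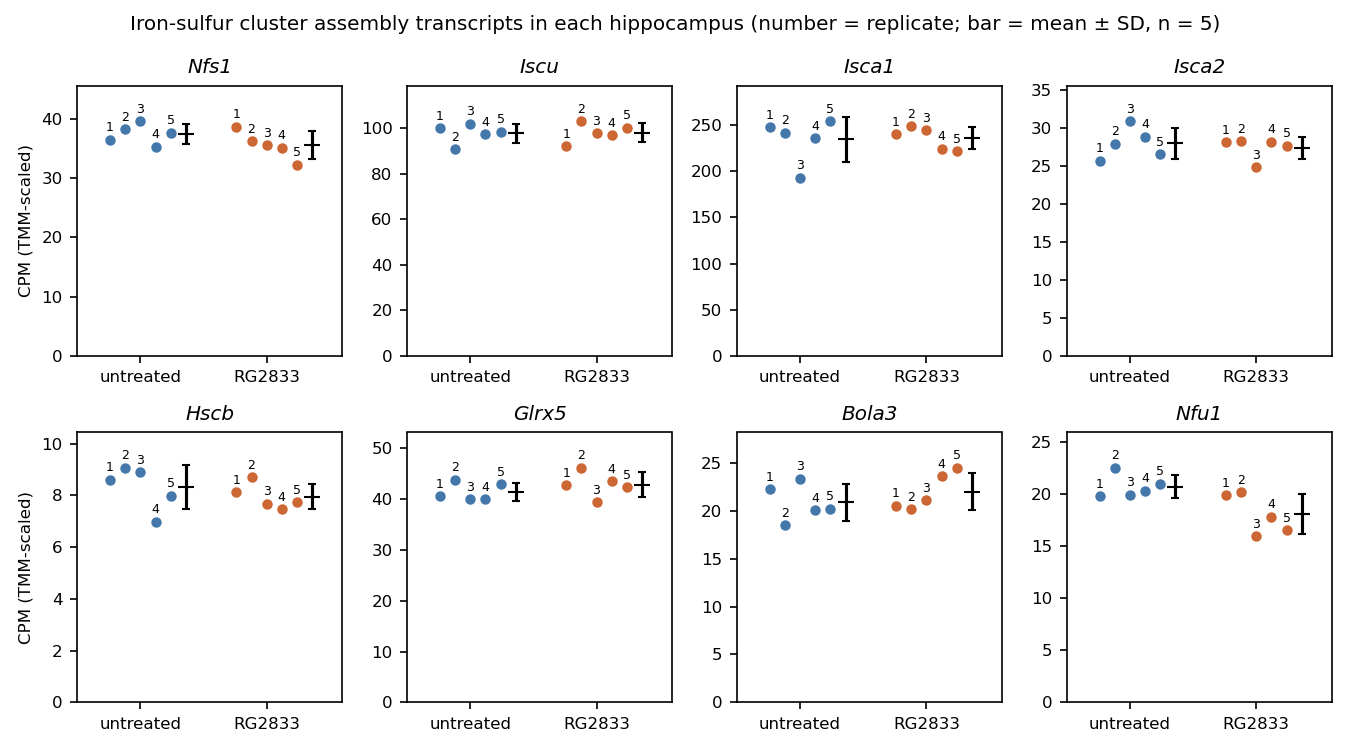
Level of each measured assembly gene in every rat, in CPM (vertical axis from 0), untreated in blue and RG2833 in orange. Numbers are replicates and black marks are the mean with SD (n = 5). The groups overlap in all 8 panels, and in Nfu1 3 of the 5 RG2833 libraries lie below every untreated one.

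The assembly genes varied less between animals than the median gene tested. Their coefficient of variation over the 10 libraries ran from 3.98% for Iscu to 10.4% for Nfu1. The median gene tested had 13.3%, so all 8 lay under that median. So did every tested respiratory and other mitochondrial client described below, from 3.49% for Fech to 9.97% for Etfdh. A spread under the median was therefore not particular to the assembly genes. For Hscb, the gene with the fewest counts (112 to 177 per library), the spread of 8.36% was no larger than the 8.56% that counting error alone would give at its mean count. Isca1, with 3202 to 4718 counts, spread by 7.70% where counting error would give 1.59%, and by 4.59% without untreated replicate 3. Library totals ran from 15118203 to 18533520 expected counts. Levels are given as CPM, that is, counts per 1e6 of the library size after scaling by the trimmed mean of M-values (TMM). CPM values of different genes depend on transcript length, so levels are compared only within a gene.

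Nfs1, the desulfurase, stood at 36.5, 38.2, 39.6, 35.3 and 37.6 CPM in untreated replicates 1 to 5. In RG2833 replicates 1 to 5 it stood at 38.7, 36.2, 35.5, 35.1 and 32.2 CPM. The groups overlapped, with 2 RG2833 libraries, replicates 4 and 5, below every untreated one. Untreated libraries averaged 37.4 ± 1.65 CPM and RG2833 libraries 35.5 ± 2.30 CPM (SD, n = 5 each). The log2 fold change was -0.075 (SE 0.060, 95% interval -0.21 to 0.058; edgeR adjusted p = 0.904). RG2833 replicates 4 and 5 are among the 3 libraries lowest in neuron markers, and without those 3 the log2 fold change of Nfs1 was -0.0079. The third of them, untreated replicate 3, had the highest Nfs1 of the 10.

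Iscu, the scaffold, was the steadiest of the 8. It was measured at 100.1, 91.0, 102, 97.3 and 98.5 CPM in untreated replicates 1 to 5 and at 92.2, 103, 97.9, 97.0 and 100.3 CPM in RG2833 replicates 1 to 5. The lowest value of each group came from the 2 libraries richest in choroid plexus markers, untreated replicate 2 and RG2833 replicate 1. There the summed CPM of 11 choroid plexus genes was 8196 and 9576, against 9.89 to 290.0 in the other 8 libraries; its part in the Iscu values was not tested. Group means were 97.8 ± 4.21 and 98.1 ± 4.05 CPM (SD, n = 5 each), for a log2 fold change of 0.0044 (SE 0.052; edgeR adjusted p = 0.996). The 95% interval of the fold change was 0.926 to 1.09. The sign turned with the libraries kept: the log2 fold change was -0.0064 without these 2 libraries.

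Hscb, the co-chaperone that works on Iscu, was at 8.60, 9.07, 8.89, 6.98 and 7.98 CPM in untreated replicates 1 to 5. RG2833 replicates 1 to 5 gave 8.13, 8.69, 7.68, 7.45 and 7.75 CPM, all within the untreated range. The means, 8.30 ± 0.848 and 7.94 ± 0.485 CPM (SD, n = 5 each), differed by a log2 fold change of -0.065 (SE 0.095, 95% interval -0.27 to 0.14; edgeR adjusted p = 0.954). Without untreated replicate 4, the lowest of the 10, it was -0.12, and without the 3 libraries lowest in neuron markers -0.0013. The main chaperone of this step, Hspa9, averaged 217 ± 20.8 CPM without the drug and 217 ± 15.1 CPM with it (SD, n = 5 each; log2 fold change 0.0058, edgeR adjusted p = 0.996). Hspa9 was highest in the same 2 libraries rich in choroid plexus markers, at 245 and 243 CPM.

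Glrx5, the glutaredoxin that relays the new cluster, had values of 40.6, 43.8, 39.9, 40.0 and 42.9 CPM in untreated replicates 1 to 5. Its RG2833 values were 42.8, 46.2, 39.3, 43.5 and 42.3 CPM. The highest and the lowest of all 10 values were both in the RG2833 group. The log2 fold change was 0.047 (SE 0.057, 95% interval -0.080 to 0.17; edgeR adjusted p = 0.944) between means of 41.4 ± 1.81 and 42.8 ± 2.45 CPM (SD, n = 5 each).

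Isca1 and Isca2, the pair that acts in making cubane clusters, had nearly equal group means but opposite extremes. Isca1 was at 248, 242, 193, 236 and 254 CPM in untreated replicates 1 to 5 and at 240.0, 249, 244, 224 and 221 CPM in RG2833 replicates 1 to 5. Its means were 234 ± 24.2 and 236 ± 12.2 CPM (SD, n = 5 each; log2 fold change 0.0078, SE 0.080, edgeR adjusted p = 0.996). The 95% interval of the fold change was 0.890 to 1.14. The Isca1 sign turned without untreated replicate 3 (-0.054), RG2833 replicate 2 (-0.012) or RG2833 replicate 3 (-0.0051). Isca2 was at 25.7, 27.9, 30.9, 28.8 and 26.5 CPM in untreated replicates 1 to 5. In RG2833 replicates 1 to 5 it was at 28.1, 28.2, 24.8, 28.2 and 27.7 CPM, so that 4 of the 5 libraries lay between 27.7 and 28.2 CPM and replicate 3 stood lower. Isca2 means were 28.0 ± 2.02 and 27.4 ± 1.46 CPM (SD, n = 5 each; log2 fold change -0.030, SE 0.067, edgeR adjusted p = 0.976), and the sign turned without untreated replicate 3 (0.0078) or RG2833 replicate 3 (0.0039). RefSeq names 1 pseudogene of Isca1 and 2 of Isca2, all 80 expected counts of the 8 genes were whole numbers, and how the authors' counting treated reads shared with such copies is not given in the sources used here, so these levels are uncertain to that extent.

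Untreated replicate 3 held both the lowest Isca1 value of the 10 libraries and the highest Isca2 value. It also stood apart in Prox1, a marker of dentate granule cells, at 4.30 CPM against 21.5 to 50.5 CPM in the other 9, and in Neurod6, a marker of pyramidal neurons, at 42.1 against 81.7 to 254 CPM. Of the other 3 genes of that list of hippocampal principal cell markers, Zbtb20 was lowest there too (36.7 CPM), while Cck at 208 CPM was the second highest and Wfs1 at 298 CPM the third highest of the 10. The 3 libraries lowest in Isca1, untreated replicate 3 and RG2833 replicates 5 and 4, were also the 3 lowest in the summed CPM of 6 neuron markers, at 3024, 3376 and 3519 against 4365 to 5268 in the other 7. Of the 6, Rbfox3, Snap25, Syt1 and Slc17a7 were each lowest in these 3 libraries. Gad1 and Gad2 did not follow, and each was lowest in untreated replicate 2, at 118 and 32.0 CPM in turn. All 6 neuron markers had lower means in RG2833 (log2 fold change -0.14 to -0.021, 0 with an unadjusted p under 0.05). The same 3 libraries were the highest in 5 microglia markers, at 484, 369 and 359.8 summed CPM in the order of their neuron sums, against 253 to 308 in the other 7. They were also the highest in 3 endothelial markers, at 307, 343 and 287 summed CPM against 159.95 to 219. In bulk tissue, fewer cells of a type and less RNA per cell cannot be told apart, and the parts of neuron, microglia and endothelial content in the Isca1 values were not tested. Without those 3 libraries, an alternative chosen after seeing the data, the Isca1 log2 fold change was -0.0063.

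Bola3, which acts with Nfu1 in late delivery, showed the reverse order. It was at 22.3, 18.5, 23.3, 20.1 and 20.2 CPM in untreated replicates 1 to 5 and at 20.5, 20.2, 21.1, 23.6 and 24.5 CPM in RG2833 replicates 1 to 5. The 3 highest values belonged to RG2833 replicates 5 and 4 and untreated replicate 3, the 3 libraries lowest in neuron and highest in microglia and endothelial markers, whose part in the Bola3 values was not tested. RG2833 replicates 4 and 5 lay above every untreated library. Means were 20.9 ± 1.92 and 22.0 ± 1.94 CPM (SD, n = 5 each; log2 fold change 0.074, SE 0.085, 95% interval -0.11 to 0.26, edgeR adjusted p = 0.939). Without those 3 libraries the log2 fold change of Bola3 was 0.020, and without untreated replicate 2 or RG2833 replicate 5 it was 0.033 and 0.035 in turn.

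Nfu1, a carrier that hands clusters to lipoate synthase and to respiratory complexes, had the largest difference of the 8. It was at 19.8, 22.5, 19.9, 20.3 and 21.0 CPM in untreated replicates 1 to 5. In RG2833 replicates 1 to 5 it was at 19.9, 20.2, 16.0, 17.8 and 16.5 CPM. RG2833 replicates 3, 4 and 5 lay below every untreated library, while replicates 1 and 2 lay inside the untreated range. The RG2833 mean of 18.1 ± 1.90 CPM was 12.7% under the untreated mean of 20.7 ± 1.12 CPM (SD, n = 5 each). The log2 fold change was -0.20 (SE 0.081, 95% interval -0.38 to -0.017), with an unadjusted p of 0.0349 that did not pass over all genes (edgeR adjusted p = 0.841). By unadjusted p it ranked 477 of 12161 genes.

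The unadjusted p of Nfu1 depended on single libraries. With untreated replicate 2 or 5 left out it was 0.0834 and 0.0634 in turn, and it rose above 0.05 without 3 of the RG2833 libraries too. With RG2833 replicate 3, 4 or 5 left out it was 0.0858, 0.0649 and 0.0814 in turn. Leaving out any one of the 10 libraries kept the log2 fold change negative, between -0.24 and -0.16. Without the 3 libraries lowest in neuron markers, which include RG2833 replicates 4 and 5, it was -0.17 with an unadjusted p of 0.123. The 3 libraries with the lowest Nfu1 values were the 3 with the highest summed CPM of 5 astrocyte genes. RG2833 replicates 4, 3 and 5 had sums of 6058, 5957 and 5870, against 4147 to 5560 in the other 7 libraries. The match did not hold for the mean log2 CPM of the same 5 genes. There untreated replicate 3, with Nfu1 at 19.9 CPM, stood above RG2833 replicate 3 (9.33 against 9.29). All 5 astrocyte markers had higher means in RG2833 (log2 fold change 0.14 to 0.33, 1 with an unadjusted p under 0.05 and 0 with an adjusted p under 0.05), and the part of astrocyte content in the Nfu1 values was not tested.

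**Figure D2:**
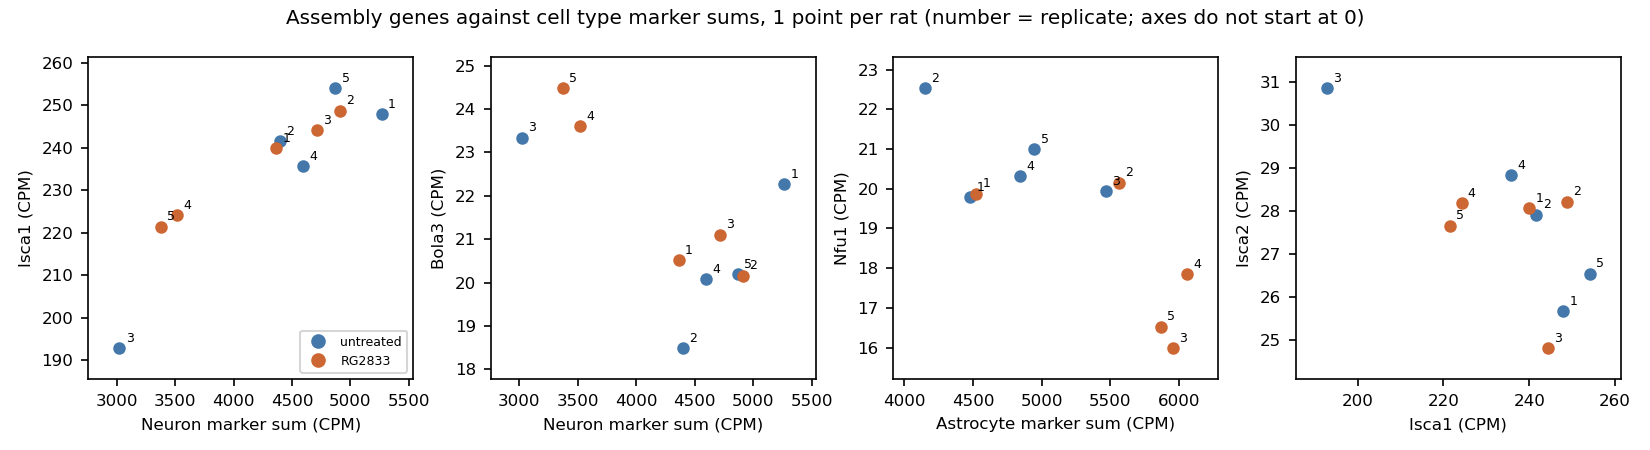
Each point is 1 rat (number = replicate, untreated blue, RG2833 orange), with Isca1 and Bola3 in CPM against the summed CPM of 6 neuron markers, Nfu1 against the summed CPM of 5 astrocyte markers, and Isca2 against Isca1. The 3 libraries with the lowest neuron marker sums are the lowest in Isca1 and the highest in Bola3, and the 3 lowest Nfu1 values lie at the highest astrocyte sums.

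The promoter windows of Nfu1, Iscu and Isca1 are shown because Nfu1 had the largest difference of the 8 and Iscu and Isca1 the smallest. Windows of 300 bases, 250 before to 50 after the gene start, came from RefSeq (GRCr8 build) and matched 8 of the 9 symbols, Lyrm4 included and Nfs1 not. The capitals mark each match to the GC box, GGGCGG on either strand, the letters bound by Sp1-type factors at many promoters without a TATA box.
Nfu1, chr4:121016156-121016455, plus strand: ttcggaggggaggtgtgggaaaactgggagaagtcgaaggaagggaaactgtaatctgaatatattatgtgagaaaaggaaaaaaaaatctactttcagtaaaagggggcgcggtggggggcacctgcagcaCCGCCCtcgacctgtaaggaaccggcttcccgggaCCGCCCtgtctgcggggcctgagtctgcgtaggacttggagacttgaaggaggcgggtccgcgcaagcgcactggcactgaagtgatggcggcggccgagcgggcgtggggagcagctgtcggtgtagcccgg
Iscu, chr12:48518647-48518946, minus strand: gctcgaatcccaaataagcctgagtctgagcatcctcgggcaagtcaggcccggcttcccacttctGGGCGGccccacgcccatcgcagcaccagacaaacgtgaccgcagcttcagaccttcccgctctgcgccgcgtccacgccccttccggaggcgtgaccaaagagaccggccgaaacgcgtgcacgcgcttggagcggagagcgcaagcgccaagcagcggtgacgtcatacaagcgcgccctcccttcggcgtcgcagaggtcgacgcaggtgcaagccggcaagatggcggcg
Isca1, chr17:4910566-4910865, plus strand: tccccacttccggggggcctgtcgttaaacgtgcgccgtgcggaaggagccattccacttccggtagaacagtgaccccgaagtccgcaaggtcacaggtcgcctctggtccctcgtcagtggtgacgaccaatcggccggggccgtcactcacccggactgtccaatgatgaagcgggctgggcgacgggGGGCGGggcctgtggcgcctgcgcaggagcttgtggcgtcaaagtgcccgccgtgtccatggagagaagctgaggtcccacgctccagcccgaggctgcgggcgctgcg

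The matches began 118 and 83 bases before the gene start in Nfu1, 184 before in Iscu and 59 before in Isca1. A GC box was present in 6 of the 8 windows, in 61.6% of the 9553 windows of genes tested and in 33.1% of all 33469 windows. CCAAT on either strand was in 4 of 8, Isca1, Isca2, Hscb and Glrx5, against 36.9%. The letters TATAAA were in 0 of 8 and in 6.87% of those of genes tested. The GABP core CCGGAAG was in 2 of 8, Iscu and Isca1, against 16.2%, and the E-box CACGTG in 0 of 8, against 8.86%. The cyclic AMP response element TGACGTCA was in 1, Iscu, against 3.21%. These are matches of letters, not measured binding.

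The wider pathway was read from 6 lists with 63 tested genes. Of these, 35 were higher and 28 lower in RG2833, 0 had an adjusted p under 0.05 (edgeR), and 4 (6.35%) had an unadjusted p under 0.05, beside 5.66% of all genes. All 4 were higher, a direction in which 2.94% of all genes had an unadjusted p under 0.05. The count in the lists and the share of all genes both moved where libraries were left out. Without untreated replicate 3 the count was 10 of 63 (15.9%), beside 14.2% of all genes. Of the 63, 7 were higher at such a p, beside 9.24% of all genes. The count was 2 (3.17%) beside 4.17% without untreated replicate 2. It was 1 (1.59%) beside 3.07% and 3.47% without RG2833 replicates 4 and 5 in turn. Without the 3 libraries lowest in neuron markers it was 2 (3.17%) beside 5.37%, and without those richest in choroid plexus markers 2 (3.17%) beside 4.90%. All were higher in the first of these fits, and 1 of the 2 in the second.

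**Figure D3:**
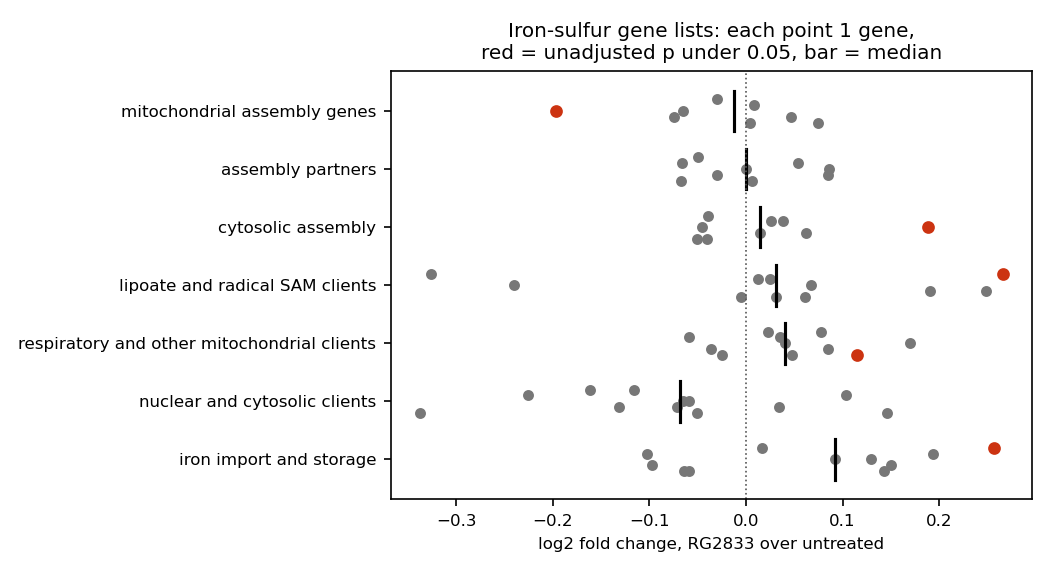
Log2 fold change (RG2833 over untreated, horizontal axis) of each tested gene in the assembly genes and in 6 further lists, with red for an unadjusted p under 0.05 and a black bar at each list's median. The red points are Nfu1 on the left and 4 genes on the right, none with an adjusted p under 0.05.

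Among 9 assembly partners, which include ferredoxins and chaperones, 4 were higher and 5 lower, and 0 had an unadjusted p under 0.05. Ndufab1, the mitochondrial acyl carrier protein, had the highest fold change, averaging 55.3 ± 4.11 CPM without the drug and 58.7 ± 2.51 CPM with it (SD, n = 5 each; log2 fold change 0.085, SE 0.063, edgeR adjusted p = 0.893). The lowest fold change of the list was that of Bola1 (log2 fold change -0.068, edgeR adjusted p = 0.946). Iba57, which works with Isca1 and Isca2, was at 9.71 ± 0.419 and 10.3 ± 0.980 CPM (SD, n = 5 each; log2 fold change 0.085, edgeR adjusted p = 0.921).

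Of the cytosolic assembly machinery, which serves nuclear and cytosolic proteins, 9 of 11 listed genes were tested, 5 higher and 4 lower. Fam96a, listed today as Ciao2a and a targeting factor of that machinery, was at 14.3, 15.7, 17.5, 15.5 and 16.0 CPM in untreated replicates 1 to 5. It was at 17.9, 18.7, 16.8, 18.1 and 18.5 CPM in RG2833 replicates 1 to 5, where 4 of 5 values exceeded every untreated one. Its log2 fold change was 0.19 (SE 0.069, unadjusted p = 0.0195, edgeR adjusted p = 0.841), and the unadjusted p stayed under 0.05 in all 10 fits that left out 1 library. It was 0.0588 without the 2 libraries rich in choroid plexus markers and 0.0679 with the replicate number as a block. The lowest was Narfl (Ciao3), at a log2 fold change of -0.051 (edgeR adjusted p = 0.939).

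The list of lipoate and radical SAM clients covers the lipoate pathway that Nfu1 serves, the enzymes that carry lipoate, and enzymes that cleave S-adenosylmethionine with a cluster. Of its 13 genes 11 were tested, 8 higher and 3 lower. Gcsh, the lipoate-bearing H protein of glycine cleavage, was at 58.0, 53.1, 70.9, 62.5 and 58.2 CPM in untreated replicates 1 to 5 and at 63.2, 71.9, 65.5, 78.9 and 84.4 CPM in RG2833 replicates 1 to 5. All 5 RG2833 values exceeded 4 of the 5 untreated ones, and untreated replicate 3 lay among them. The 5 libraries highest in Gcsh, RG2833 replicates 5, 4, 2 and 3 and untreated replicate 3, were the 5 highest in the sum of astrocyte markers, at 5468 to 6058 CPM against 4147 to 4946 in the other 5, and the part of astrocyte content in Gcsh was not tested. The log2 fold change was 0.27 (SE 0.10, unadjusted p = 0.0225, edgeR adjusted p = 0.841). The unadjusted p of Gcsh stayed under 0.05 in 7 of the 10 fits that left out 1 library, and was 0.0538 without untreated replicate 2 and 0.0521 and 0.0571 without RG2833 replicates 4 and 5 in turn. Lias, the lipoate synthase itself, was at 27.3 ± 1.41 and 27.8 ± 1.71 CPM (SD, n = 5 each; log2 fold change 0.031, edgeR adjusted p = 0.972). The lowest was Rsad2, an interferon-induced radical SAM enzyme, at 4.01 ± 0.753 and 3.20 ± 0.862 CPM (SD, n = 5 each; log2 fold change -0.33, SE 0.21, edgeR adjusted p = 0.870).

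Among 11 respiratory and other mitochondrial clients, 8 were higher and 3 lower, 1 of them at an unadjusted p under 0.05. Uqcrfs1, the Rieske protein of respiratory complex III, was at 129.8, 124, 120.1, 122 and 129 CPM in untreated replicates 1 to 5. In RG2833 replicates 1 to 5 it was at 139, 132, 132, 136 and 137 CPM. This was the 1 gene of the 63 (1.59%) whose groups did not overlap, where 1.00% of all genes had such groups. Its log2 fold change was 0.11 (SE 0.047, unadjusted p = 0.0338, edgeR adjusted p = 0.841). The unadjusted p of Uqcrfs1 stayed under 0.05 in 4 of the 10 fits that left out 1 library, and reached 0.0796 without RG2833 replicate 1. It was 0.155 without the choroid-rich libraries, 0.143 without the 3 lowest in neuron markers and 0.0984 with the replicate block.

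Etfdh, which passes electrons from fatty acid and amino acid oxidation to ubiquinone, had the highest fold change of the list. It was at 30.5, 39.3, 38.8, 35.02 and 36.8 CPM in untreated replicates 1 to 5 and at 40.2, 38.0, 38.1, 42.7 and 44.1 CPM in RG2833 replicates 1 to 5, where replicates 1, 4 and 5 exceeded every untreated library. The log2 fold change of Etfdh was 0.17 (SE 0.079, unadjusted p = 0.0554, edgeR adjusted p = 0.841). Fech, the ferrochelatase of haem synthesis, had the lowest (log2 fold change -0.059, edgeR adjusted p = 0.904).

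Nuclear and cytosolic clients, mostly enzymes of DNA replication and repair, had 3 genes higher and 9 lower of 12 tested, and 0 had an unadjusted p under 0.05. Mutyh, a DNA glycosylase, was the lowest (log2 fold change -0.34, SE 0.20, edgeR adjusted p = 0.841). It stood at 6.69 CPM in untreated replicate 3 and at 3.37 to 4.15 CPM in the other untreated libraries, beside 3.23 to 3.60 CPM in RG2833. Prim2, a primase subunit, had the highest (log2 fold change 0.15, edgeR adjusted p = 0.884).

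Of 11 iron import and storage genes, 7 were higher and 4 lower. Steap3, a ferrireductase, was at 14.9, 12.5, 16.2, 15.7 and 14.9 CPM in untreated replicates 1 to 5 and at 16.3, 14.3, 17.9, 21.6 and 18.6 CPM in RG2833 replicates 1 to 5. Steap3 had a log2 fold change of 0.26 (SE 0.11, unadjusted p = 0.0463, edgeR adjusted p = 0.841), and the unadjusted p stayed under 0.05 in 3 of the 10 fits that left out 1 library. It was 0.0996 without the choroid-rich libraries, 0.216 without the 3 lowest in neuron markers, 0.0503 with DESeq2, 0.0557 with limma-voom and 0.0538 with limma-trend. With median-of-ratios and upper-quartile scaling it was 0.0504 and 0.0642. The 3 highest Steap3 values lay in RG2833 replicates 4, 5 and 3, the 3 libraries with the highest astrocyte marker sums. By the mean log2 CPM of those markers, untreated replicate 3 (9.33) stood above RG2833 replicate 3 (9.29). The part of astrocyte content in Steap3 was not tested. The lowest was Hmox2, a haem oxygenase, at a log2 fold change of -0.10 (edgeR adjusted p = 0.921).

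**Figure D4:**
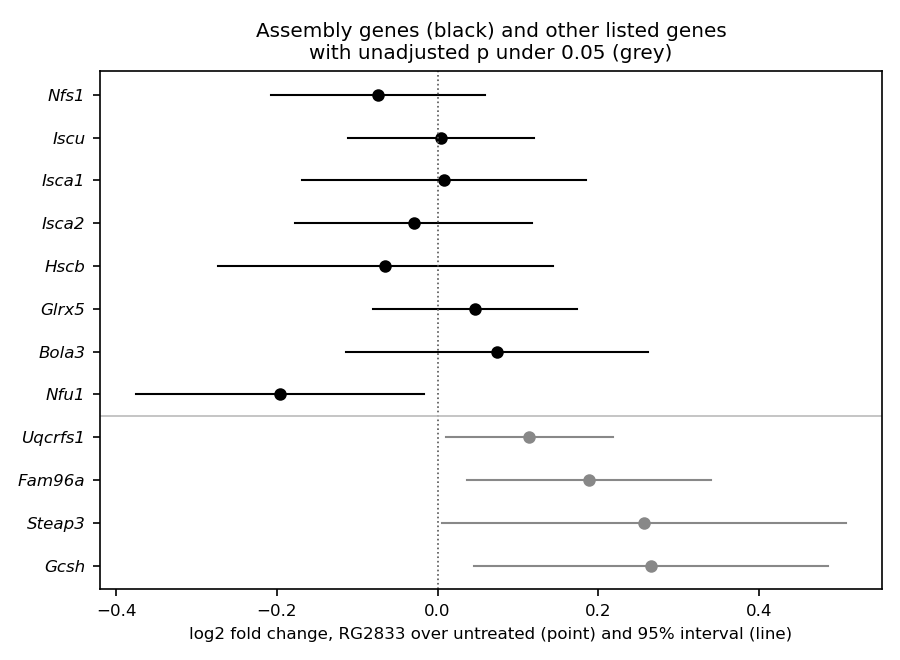
Log2 fold change (point) and 95% interval (line) of the 8 measured assembly genes in black and of the 4 other listed genes with an unadjusted p under 0.05 in grey. Of the black intervals, 7 of 8 span 0, and the interval of Nfu1 ends at -0.017. The grey intervals leave out 0 because these genes were picked by that threshold, and all 4 lie above it.

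Genes whose proteins act together were compared across the 10 rats, over 3 pairs, with Nfs1 and Lyrm4 not compared. Iscu and its co-chaperone Hscb had a Pearson r of 0.027 (permutation and adjusted p = 0.940) and a Spearman rho of 0.20 (permutation p = 0.582, adjusted p = 0.582) in log2 CPM (n = 10). Without the 2 libraries farthest from the Iscu median, untreated replicate 2 and RG2833 replicate 1, r was 0.86 (n = 8). No p is given for this value, since those libraries were picked by their Iscu values. They are also the 2 libraries richest in choroid plexus markers, whose part in this r was not tested. Leaving out any 1 library gave r between -0.14 and 0.48.

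Isca1 and Isca2 had r = -0.72 (permutation p = 0.0237, adjusted p = 0.0712) and rho = -0.52 (permutation p = 0.134, adjusted p = 0.403; n = 10). Without untreated replicate 3 and RG2833 replicate 5, the 2 farthest from the Isca1 median, r was -0.48 (n = 8). Without untreated replicate 3 alone it was -0.43 (n = 9, exact permutation p = 0.232, adjusted p = 0.696). Without RG2833 replicate 5 alone r was -0.74 (n = 9, exact permutation p = 0.0208, adjusted p = 0.0623). Among the fits that left out a single library, r was weakest without untreated replicate 3 and stayed negative throughout (-0.78 to -0.43). The adjusted p was under 0.05 in 2 of the alternatives, at 0.0465 with median-of-ratios size factors (r = -0.74) and 0.0395 without RG2833 replicate 2 (r = -0.78, n = 9, exact permutation). Glrx5 and Bola3 had r = -0.28 (permutation p = 0.438, adjusted p = 0.657) and rho = -0.33 (permutation p = 0.348, adjusted p = 0.523; n = 10). Without RG2833 replicates 2 and 3 it was -0.25 (n = 8). Ranked from the highest r down among 12158 other genes, Hscb was number 5207 for Iscu, Isca2 number 10566 for Isca1 and Bola3 number 10503 for Glrx5.

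The genes most like Nfs1 in log2 CPM over the 10 libraries, of 11713 compared, were Bax (r = 0.94), Aurka (r = 0.92) and Gpaa1 (r = 0.92). For Iscu they were Nme1 (r = 0.91), Wdr62 (r = 0.86) and Tbc1d25 (r = 0.85). These were picked as the highest of many values and are given as a description, over 10 libraries that differ in depth and in marker content.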

How the data were processed

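The submitters' processing notes name bcl2fastq 2.17, Bowtie2 2.1.0, RSEM 1.2.15, edgeR and the rn6 build. RNA was prepared as stranded mRNA libraries, per the labels' protocols. The authors deposited RSEM expected counts per gene, of which 11.6% were not whole, and a TMM-normalized CPM signal. In each library 100% of that signal was whole multiples of 1 read (tolerance 0.01), and at least 99.93% of the reads recovered equalled the rounded counts. Ibudilast, another drug, appears once in the design text, but every treatment label gives RG2833, which was followed.

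Expected counts were rounded and tested with edgeR 4.0.16 in R 4.3.3: filterByExpr (minimum count 10, minimum total 15), TMM, robust quasi-likelihood F test, Benjamini-Hochberg adjustment over 12161 genes, threshold 0.05. CPM values are on this TMM scale, between 0.971 and 1.01 of the authors' values for the assembly genes. SE and intervals come from the F statistic. Log2 CPM used a prior count of 2. Correlations had 100000 permutations, or all of them for fewer than 10 libraries. Fits were tested on simulated data. Every assembly gene is named; of the other lists, those with an unadjusted p under 0.05 and the highest and lowest fold change, besides Hspa9, Iba57 and Lias, chosen for their role after their values were seen. Old and new symbols counted once. Some genes of the lists are not reported here and were left out of their counts. The assembly genes and lists were chosen with earlier results of these data known. Alternatives included DESeq2 1.42.0 and limma 3.58.1. No label shows a batch. The smallest chi-square per gene between 2 libraries was 7.38, so none was counted as a copy. That the rats are separate animals comes from the design text.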

Additional observations from a re-analysis of the deposited data

Results flagged for a closer look

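In 1 of 16 sets of 5 values, those of the 8 assembly genes in each group, 1 library stood far from the other 4, where chance gives about 0.8. This was Isca2 in RG2833 replicate 3, at 24.8 CPM, with a gap to the nearest other RG2833 library of 0.836 of the group's range, above the limit of 0.71 for 5 values. The same library held the lowest Glrx5 and Nfu1 values of the 10.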

How the results depend on the processing

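No assembly gene had an adjusted p under 0.05 in any of the 21 alternatives. Over all genes that count was 0 except with DESeq2, which gave 7; the cause was not tested. The count at an unadjusted p under 0.05 ran from 375 (without RG2833 replicate 4) to 1732 (without untreated replicate 3) when 1 library was left out. The assembly genes then had 0 or 1 such gene and the other listed genes 1 to 10. Without the 3 libraries lowest in neuron markers these were 0 and 2, beside 657 of all genes, and without those rich in choroid plexus markers the other listed genes had 2, beside 596. With the replicate number as a block, 401 genes and 2 other listed genes had an unadjusted p under 0.05. Same-numbered libraries deviated with correlations of -0.49 to -0.034, and 0 of 10 libraries correlated best with its own number. No likeness by number was seen, but this check cannot exclude a pairing that leaves no such likeness. The fit on the whole reads recovered from the authors' CPM gave 0 and 688.

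The sign of the smallest differences turned. Iscu had a log2 fold change of -0.0026 with upper-quartile scaling and -0.0064 without the choroid-rich libraries. Isca1 was at -0.0063 without the 3 libraries lowest in neuron markers. Leaving out 1 library gave -0.021 to 0.026 for Iscu, -0.054 to 0.040 for Isca1 and -0.059 to 0.0078 for Isca2. Nfs1, Hscb, Glrx5, Bola3 and Nfu1 kept their sign in all 21. However, without the 3 libraries lowest in neuron markers Nfs1 was at -0.0079, Hscb at -0.0013, Glrx5 at 0.029 and Bola3 at 0.020. Leaving out 1 library gave -0.11 to -0.039 for Nfs1, -0.12 to -0.031 for Hscb, 0.018 to 0.076 for Glrx5 and 0.033 to 0.12 for Bola3. With median-of-ratios size factors r was -0.0015 for Iscu and Hscb and -0.74 (adjusted permutation p = 0.0465) for Isca1 and Isca2. Leaving out 1 library gave r from -0.14 to 0.48 for the first pair and from -0.78 to -0.43 for the second.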
